A study of Mus musculus with 12 samples.

Results

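Tumor-associated neutrophils (TANs) of PyMT-Cxcr2-/- mice were set against bone marrow (BM) neutrophils of WT mice, to describe the genes that were gained in the mammary tumor without Cxcr2 and the marrow genes that were kept. The members are the 4 samples whose genotype label is PyMT-Cxcr2-/- and the 4 labelled WT, 8 of the 12 samples of the series. The other 4 samples are TANs of PyMT mice with intact Cxcr2, used only as a reference for where the Cxcr2-deficient TANs differ from them or are alike. All mice were of the FVB strain, 10 weeks old and kept under SOPF housing. The PyMT transgene, a polyomavirus oncogene expressed in the mammary epithelium, was carried by both TAN groups and not by the WT mice, and the deletion of Cxcr2 was carried by 1 TAN group in every cell of the animal. Neutrophils were sorted as CD45+ CD11b+ Ly6G+ F4/80- cells after enrichment for CD11b, from enzymatically dissociated tumors or from the marrow of femurs and tibias. Tissue, transgene, Cxcr2 genotype and dissociation all differ between the compared groups and cannot be told apart in this comparison.

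Neutrophils are made in the marrow, where granule proteins are produced in successive waves as the cells mature: primary granules first, then secondary and gelatinase granules. CXCR2 is the receptor through which mature neutrophils respond to ELR+ CXC chemokines such as CXCL1 and CXCL2, and it draws them out of the marrow and into inflamed tissue. In tumors, neutrophils are known for cytokine and chemokine production, for prostaglandin and arginine metabolism that restrains T cells, and for proteases that act on the matrix.

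RNA-seq reads per gene were counted. Between 35519181 and 51351569 reads fell on genes in the PyMT-Cxcr2-/- TAN samples and between 38722900 and 44310707 in the BM samples, so that a gene with 3 reads in a sample sits at 0.0584 to 0.120 CPM (reads of a gene per 1000000 reads on genes) over the 12 samples. The 10 most abundant genes took 9.13 to 10.6% of the reads in PyMT-Cxcr2-/- TANs and 13.6 to 16.4% in BM neutrophils. Levels are given as CPM scaled over all 12 samples, and differences as log2 fold changes ± SE of edgeR's quasi-likelihood fit on the 8 samples, with n = 4 a group and p-values adjusted by Benjamini and Hochberg over all genes tested. The scaling over 12 samples puts the median log2 fold change of all genes 0.134 lower than the scaling over 8, so a ratio of 2 printed levels is slightly below the fitted value. A gene is called higher or lower (it rose or fell) at an adjusted p under 0.05 and a change of 1.5-fold or more. In bulk samples, fewer cells of a type and less RNA per cell cannot be told apart.

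The targeted gene followed its labels. Cxcr2 (chr1:74153989-74161246, GRCm38) stood at 8.82, 9.72, 10.0 and 8.98 CPM in the 4 PyMT-Cxcr2-/- TAN samples and at 2253, 2138, 1824 and 1927 CPM in the 4 BM samples, a log2 fold change of -7.62 ± 0.15 (edgeR adjusted p = 3.11e-12). PyMT TANs held 1196 ± 224 CPM (SD), so the reads left in the Cxcr2-deficient TANs were fewer than in any sample with an intact gene. Csf3r, the receptor for the granulocyte growth factor G-CSF, was at 4350.4, 4082, 5293 and 5374 CPM in the PyMT-Cxcr2-/- TANs, against 4324, 3832, 3873 and 3801 CPM in BM neutrophils, high in all 8 samples and not called. Ly6g, the gene of the sorted surface antigen, was at 125 ± 36.8 CPM in the PyMT-Cxcr2-/- TANs, against 549 ± 85.3 CPM in BM neutrophils (log2 fold change -1.998 ± 0.18).

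Markers of other cell types moved with the comparison as well. The 12 macrophage markers, all called higher, summed to 2486 to 5233 CPM in PyMT-Cxcr2-/- TANs against 222 to 317 CPM in BM neutrophils, and none was at 0 in either group. The 12 mammary epithelial markers summed to 90.2 to 349 CPM in PyMT-Cxcr2-/- TANs, while in BM neutrophils the sum was 0.300 to 0.631 CPM and Krt8, Krt14, Krt5, Krt19, Csn2 and Csn3 were at 0. Fibroblast markers summed to 4.73 to 42.8 CPM in the TANs. Their part in the results below was not tested. The 10 neutrophil markers summed to 18879 to 31190 CPM in the PyMT-Cxcr2-/- TANs, against 81156 to 107723 CPM in BM neutrophils, and 9 of the 10 fell. Cxcr2 is 1 of the 9, and its fall was fixed by the genotype. S100a8 and S100a9 made up the larger part of the sum. Several of these markers also belong to the granule and S100 lists below, so the sum is not independent of those lists.

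Of 17732 genes tested, 34.4% were called higher in PyMT-Cxcr2-/- TANs and 25.1% lower, with a median log2 fold change of 0.086 over all genes tested. The list counts below are to be read beside these shares. PyMT TANs, which have the receptor, changed alike from the marrow in several lists, so the changes there are not particular to TANs without Cxcr2. In PyMT TANs, 17 NF-kappaB, 12 heat shock, 21 lysosome, 18 matrix and 9 MHC class II genes rose. The medians of these lists in PyMT TANs were 1.79, 1.76, 1.13, 3.39 and 5.06. Secondary granule genes fell further in PyMT TANs, at a median of -4.15. Levels of the 2 groups did not overlap for 65.9% of genes tested. Of 6816 genes with a mean of 10 CPM or more in BM neutrophils, 2581 fell and 1049 rose, and of 7004 genes at that level in PyMT-Cxcr2-/- TANs, 2125 rose. Choosing genes by their level in 1 group favors the direction in which that group is the higher one. The same holds for list members that had enough reads to be tested only in the TAN samples. Of the 6816 genes, a further 1844, 27.1%, were at a retained level, meaning that the 95% interval of the log2 fold change lay within 1.5-fold either way, and 1342 were neither called nor held within that range. The genes called higher took 33.6 to 38.5% of all reads on genes in PyMT-Cxcr2-/- TANs and 9.52 to 10.8% in BM neutrophils. Genes called lower took 21.6 to 26.0% in the TANs and 51.9 to 55.6% in the marrow, and retained genes took 21.9 to 22.3% and 19.2 to 20.7%. These shares describe genes chosen by the same reads.

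**Figure D1:**
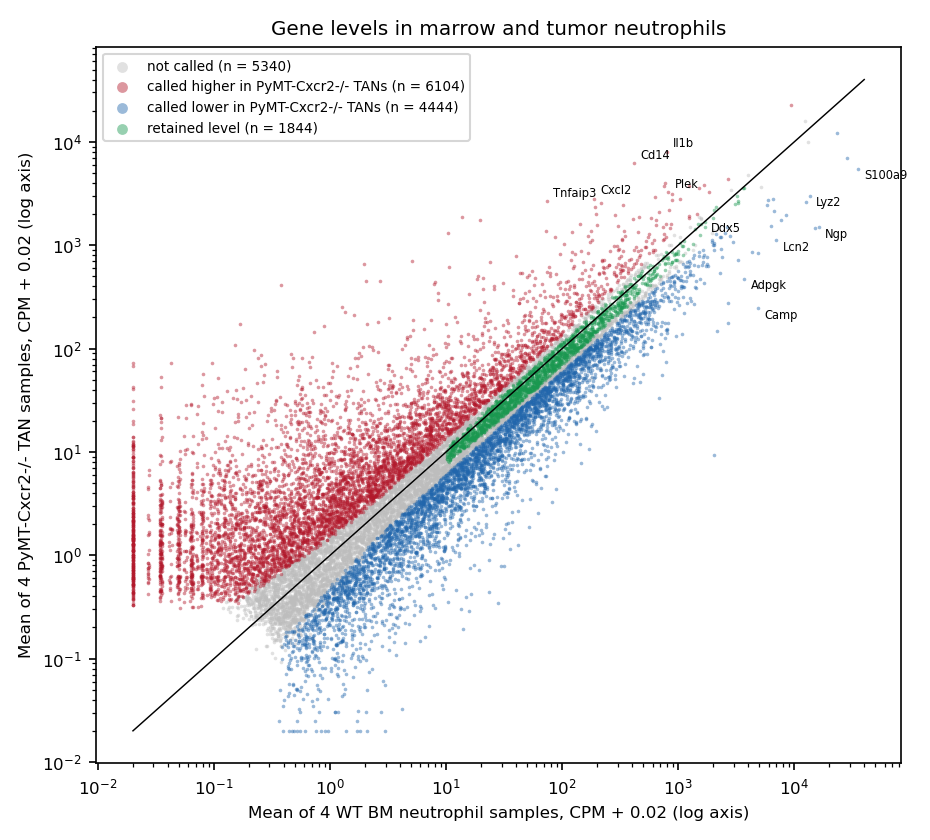
Mean level of each tested gene in 4 WT BM neutrophil samples (x axis, CPM + 0.02, log) and in 4 PyMT-Cxcr2-/- TAN samples (y axis, CPM + 0.02, log), with the line of equal levels. Il1b and Cd14 lie above the line at 8052 and 6229 CPM in the TANs, S100a9 and Ngp lie below it, and the 1844 retained genes lie along it.

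Il1b was the most abundant of the genes that rose at least 4-fold, and Cd14, Cxcl2 and Ptgs2 were also among the first 10. Il1b, the gene of interleukin-1 beta, had 7736, 6657, 9355 and 8460.0 CPM in the 4 PyMT-Cxcr2-/- TAN samples and 713, 852, 862 and 749 CPM in the 4 BM samples (log2 fold change 3.48 ± 0.16, edgeR adjusted p = 1.32e-09). Every TAN sample was far above every marrow sample. Cd14, the lipopolysaccharide co-receptor, had 6088, 5629, 6636 and 6563 CPM against 354, 455, 429 and 430.3 CPM in the marrow (log2 fold change 4.04 ± 0.15). Cxcl2, a ligand of the missing receptor, had 2751, 2088, 3079 and 3357 CPM against 108, 222, 207 and 214 CPM (log2 fold change 4.04 ± 0.24). A Cxcr2 ligand transcript was high in all 4 samples that lack the receptor, and PyMT TANs, which have it, held 3154 ± 580 CPM (SD) of Cxcl2. Ptgs2, which encodes the cyclooxygenase COX-2 of prostaglandin synthesis, had 2445, 2118, 3289 and 2439 CPM against 132, 279, 244 and 206 CPM (log2 fold change 3.71 ± 0.23).

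The 10 protein-coding genes that rose at least 4-fold and were most abundant in PyMT-Cxcr2-/- TANs also held Junb, an AP-1 subunit, with 4002 ± 491 CPM (SD, n = 4) against 765 ± 128 CPM. Hdc, the enzyme that makes histamine, had 3704 ± 601 CPM against 755 ± 107 CPM. Plek, the gene of pleckstrin, a protein kinase C substrate of blood cells, had 3234 ± 550.1 CPM against 822 ± 48.3 CPM. Ets2, an ETS family transcription factor, had 2430.3 ± 339 CPM against 331 ± 79.2 CPM. The log2 fold changes of these 4 genes were 2.52, 2.43, 2.11 and 3.01. The remaining members, Nfkbiz and Tnfaip3, belong to the NF-kappaB feedback genes described next. Il1b, Junb and Plek each have an annotated gene on the opposite strand, so that their counts are uncertain where strand was not used. The difference between PyMT-Cxcr2-/- and PyMT TANs was not called for any of the 10.

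**Figure D2:**
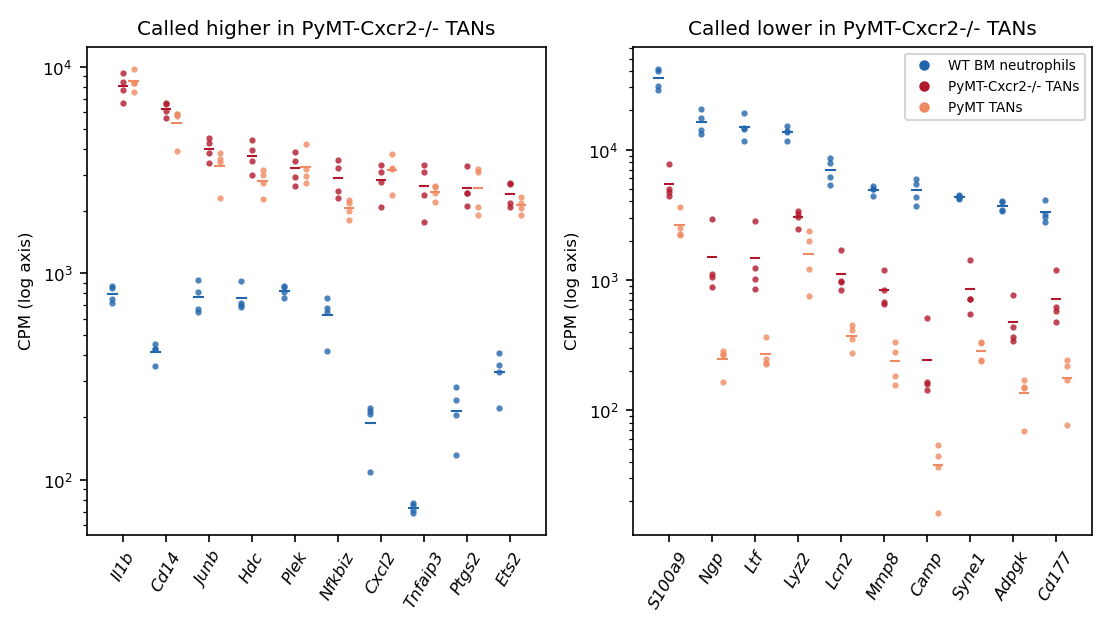
CPM (log axis) in each of 4 samples of WT BM neutrophils, PyMT-Cxcr2-/- TANs and PyMT TANs for the 10 most abundant genes that rose and the 10 most abundant marrow genes that fell at least 4-fold, with bars at the means. The TAN samples lie above all marrow samples on the left and below them on the right, and on the right the PyMT-Cxcr2-/- TANs lie above the PyMT TANs for most genes.

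NF-kappaB is held in the cytosol by IkappaB proteins, and its target genes include those that shut it off again. In the list of its subunits and feedback genes, 18 of 23 tested members rose, 0 fell and 5 passed in neither direction (median log2 fold change 1.95). Tnfaip3, the deubiquitinase A20, had 2386, 1769.6, 3104 and 3354 CPM against 71.6, 76.9, 75.3 and 69.0 CPM in the marrow (log2 fold change 5.31 ± 0.20), a narrow marrow range that no TAN sample approached. Nfkbia, the inhibitor IkappaB-alpha, had 1932, 1337, 2386 and 2386 CPM against 203, 234, 158 and 194 CPM (log2 fold change 3.48 ± 0.20). Nfkbiz, the nuclear regulator IkappaB-zeta, had 2489, 2310.5, 3238 and 3540.2 CPM against 419.6, 757, 652 and 675 CPM (log2 fold change 2.34 ± 0.20). Tnfaip2 rose by 1.26 ± 0.14 on the log2 scale. The subunit Nfkb1, the adaptor Tnip1, the kinase Ikbkb and Birc2 were not called, and the last 3 of these were at a retained level.

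The promoters of 3 genes that rose and of 3 granule genes that fell are shown because they hold the motif letters searched for. Each is the 250 bases before a transcription start in RefSeq, build GRCm38.p6, read 5′ to 3′ on the gene's strand. In the first 3 the capitals mark matches to the kappaB letters GGNNTTTCC on either strand, and in the last 3 matches to the C/EBP letters TTGCNNAA on either strand. Nfkbia lies at chr12:55492648-55492897 on the minus strand, Tnfaip3 at chr10:19015411-19015660 on the minus strand and Cxcl2 at chr5:90903649-90903898 on the plus strand. Ltf lies at chr9:111019042-111019291 and Ngp at chr9:110419558-110419807, both on the plus strand, and Lcn2 at chr2:32387740-32387989 on the minus strand.
Nfkbia: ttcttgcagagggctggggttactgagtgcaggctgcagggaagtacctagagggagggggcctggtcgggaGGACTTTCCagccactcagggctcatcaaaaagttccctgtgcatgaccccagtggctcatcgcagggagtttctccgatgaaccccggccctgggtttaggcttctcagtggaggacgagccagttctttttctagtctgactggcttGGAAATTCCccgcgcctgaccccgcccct
Tnfaip3: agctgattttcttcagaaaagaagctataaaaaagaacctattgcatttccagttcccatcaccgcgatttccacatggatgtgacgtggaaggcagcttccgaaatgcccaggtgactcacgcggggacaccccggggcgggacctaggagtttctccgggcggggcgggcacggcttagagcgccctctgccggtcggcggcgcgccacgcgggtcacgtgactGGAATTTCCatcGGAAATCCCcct
Cxcl2: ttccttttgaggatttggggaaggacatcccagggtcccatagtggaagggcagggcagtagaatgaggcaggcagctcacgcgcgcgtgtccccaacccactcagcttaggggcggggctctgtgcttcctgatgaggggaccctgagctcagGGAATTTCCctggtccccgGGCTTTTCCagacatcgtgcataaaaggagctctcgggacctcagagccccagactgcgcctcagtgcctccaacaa
Ltf: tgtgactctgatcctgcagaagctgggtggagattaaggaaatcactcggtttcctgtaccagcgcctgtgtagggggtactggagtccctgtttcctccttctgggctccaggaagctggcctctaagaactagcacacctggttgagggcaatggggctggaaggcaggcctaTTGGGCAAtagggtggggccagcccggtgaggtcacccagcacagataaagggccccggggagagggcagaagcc
Ngp: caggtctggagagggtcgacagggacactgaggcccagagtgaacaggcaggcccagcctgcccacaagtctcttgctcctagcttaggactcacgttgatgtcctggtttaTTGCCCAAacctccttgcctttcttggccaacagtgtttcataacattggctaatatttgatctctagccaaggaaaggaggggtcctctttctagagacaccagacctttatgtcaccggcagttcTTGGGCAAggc
Lcn2: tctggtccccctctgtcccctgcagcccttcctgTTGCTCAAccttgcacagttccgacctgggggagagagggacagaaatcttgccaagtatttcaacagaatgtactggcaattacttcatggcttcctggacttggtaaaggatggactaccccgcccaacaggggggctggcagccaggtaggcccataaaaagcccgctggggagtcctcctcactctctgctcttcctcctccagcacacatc

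The matches begin 178 and 29 bases before the start in Nfkbia, 24 and 12 bases in Tnfaip3 and 96 and 77 bases in Cxcl2. The C/EBP letters begin 75 bases before the start in Ltf, 138 and 11 bases in Ngp and 216 bases in Lcn2. Over windows of 300 bases, 1 a gene, the kappaB letters were in 42.1% of 19 NF-kappaB list promoters and in 50% of 10 CXC chemokine promoters, against 5.72% of all 27025 promoters. The C/EBP letters were in 38.5% of 13 secondary granule promoters and in 40.0% of 10 gelatinase granule and secretory vesicle promoters, against 10.8% of all promoters. Of the 4 gelatinase granule and secretory vesicle genes that held them, Mmp8 and Retnlg fell, Adam8 was at a retained level and Hpx rose. The same letters were in 27.8% of matrix and 25.9% of pattern receptor promoters, lists in which more members rose than fell. The letters GAAANNGAA were in 62.5% of 32 interferon-stimulated gene promoters against 8.57% of all, and in 2 of 3 NADPH oxidase promoters. ACGTG was in 58.6% of 29 glycolysis and hypoxia promoters, against 19.7% of all and 25% of those of genes tested. It was also in 45.8% of lysosome, 40% of AP-1 and early response and 40% of CXC chemokine promoters, so these letters were not particular to 1 list. The AP-1 letters TGANTCA were in 0 of 20 AP-1 and early response promoters against 7.93% of all. Over all genes the motif shares of the genes called higher and lower were alike in size, 6.66% and 6.27% for the kappaB letters and 8.64% and 9.88% for the C/EBP letters. The Il1b window held neither set of letters, nor did that of Camp. These matches were not tested and describe the letters alone.

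Chemokines recruit leukocytes through G protein-coupled receptors. Among CC chemokines, 10 of 11 tested members rose (median log2 fold change 7.16) and 4 of the 15 listed were too low to test. Of the 11, 2 had a mean of 10 CPM or more in BM neutrophils. Ccl3, a ligand of CCR1, had 104, 60.2, 103 and 114 CPM against 10.5, 25.04, 16.7 and 21.3 CPM (log2 fold change 2.51 ± 0.27), and PyMT TANs had 187 ± 27.7 CPM, a difference that was called (log2 fold change -0.97 ± 0.20, edgeR adjusted p = 0.0299) but that held in 2 of 8 fits that left out 1 sample. Ccl4 had 71.0 ± 9.26 CPM against 4.92 ± 1.89 CPM and Ccl9 51.0 ± 18.3 CPM against 6.79 ± 1.72 CPM. The monocyte attractant Ccl2 had 11.9 ± 2.93 CPM against 0.0890 ± 0.0595 CPM. Ccl7 and Ccl8 had no read in any BM sample and were at least 344-fold and 504-fold higher in the TANs, counted against 3 reads over the 4 BM samples. Both were tested only because of their TAN reads and could only be called higher. Ccl6 went the other way, with 316 ± 29.9 CPM against 943 ± 73.8 CPM (log2 fold change -1.44 ± 0.11).

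Among CXC chemokines, 8 of 10 tested members rose, Ppbp fell and Cxcl12 was not called (median log2 fold change 3.92). Of the 10, 1 had a mean of 10 CPM or more in BM neutrophils. The Cxcr2 ligands Cxcl3 and Cxcl1 had 46.5 ± 13.9 and 25.6 ± 7.01 CPM in PyMT-Cxcr2-/- TANs against 2.92 ± 1.23 and 0.534 ± 0.361 CPM in BM neutrophils, and Cxcl5 was too low to test. The log2 fold changes of Cxcl3 and Cxcl1 were 4.13 ± 0.29 and 5.72 ± 0.39. Cxcl16 had 81.7 ± 31.2 CPM against 0.461 ± 0.192 CPM (log2 fold change 7.60 ± 0.38). Of the Cxcr2 ligands tested, Cxcl1, Cxcl2 and Cxcl3 were thus called higher in TANs that lack the receptor, and Ppbp, also a Cxcr2 ligand, was called lower, at 0.664 ± 0.658 CPM against 3.21 ± 1.25 CPM (log2 fold change -2.13 ± 0.77). The Ppbp call was lost with DESeq2 and without PyMT-Cxcr2-/- TAN sample 2 or 3 or WT BM sample 1 or 3. In PyMT TANs, which have the receptor, 8 CXC chemokines were also called higher than in the marrow. Between the TAN groups, 0 of 12 tested members were called (median log2 fold change of PyMT-Cxcr2-/- over PyMT TANs -0.76).

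In the list of inflammatory cytokines, 20 of 26 tested members rose, 2 fell and 4 passed in neither direction (median log2 fold change 3.03). Osm, an interleukin-6 family cytokine, had 746, 749.6, 838 and 903 CPM against 378, 562, 467 and 471 CPM (log2 fold change 0.92 ± 0.13). PyMT TANs had 428 ± 69.7 CPM of Osm, close to the marrow, and the difference between the TAN groups was called (log2 fold change 0.92 ± 0.15, edgeR adjusted p = 0.0154). Il1rn, the interleukin-1 receptor antagonist, had 626 ± 104 CPM against 348 ± 17.3 CPM and the macrophage growth factor Csf1 419 ± 87.7 CPM against 67.4 ± 18.6 CPM. Tnfsf13b, the B cell factor BAFF, and Il27 fell, by 1.94 and 1.95 on the log2 scale. Il1f9, an interleukin-36 cytokine, was kept: it had 328, 278, 435 and 525 CPM in the PyMT-Cxcr2-/- TANs, against 421, 427, 351 and 390.1 CPM in BM neutrophils, overlapping ranges at a log2 fold change of 0.11 ± 0.17. It was lower in PyMT TANs at 188 ± 28.6 CPM (log2 fold change between the TAN groups 1.06 ± 0.20, edgeR adjusted p = 0.0251).

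AP-1 subunits and other early response factors are transcribed within minutes of a stimulus. In that list, 21 of 23 tested members rose, 0 fell and 2 passed in neither direction (median log2 fold change 2.52). The most abundant was Junb. Fosl2, a FOS family subunit, had 3353, 3215, 4456 and 3812 CPM against 1292, 1376, 1164 and 1114 CPM (log2 fold change 1.72 ± 0.14). Dusp1, a phosphatase of MAP kinases, had 3798, 3423, 4185 and 4002 CPM against 1676, 1836, 1487 and 1716 CPM (log2 fold change 1.33 ± 0.13), and Btg2 2715 ± 343 CPM against 876 ± 64.5 CPM. The TAN and marrow samples of these genes did not overlap. Ier2 and Mafk were not called. In the list of heat shock proteins, 12 of 18 tested members rose, 0 fell and 6 passed in neither direction (median log2 fold change 1.55). Hspa1b, the stress-inducible HSP70, had 248, 216, 128 and 104 CPM against 2.55, 2.85, 1.43 and 1.37 CPM (log2 fold change 6.55 ± 0.38), whereas Hspa8 rose by 1.59 ± 0.13 and Hsp90ab1, Dnaja1, Dnajb1 and Dnajb6 were at a retained level. The tumors alone were enzymatically dissociated, and the part of dissociation in the early response and heat shock genes was not tested. In the unfolded protein and integrated stress response list, 7 of 19 tested members rose, 0 fell and 12 passed in neither direction (median log2 fold change 0.20). Of all genes tested, 34.4% rose and 25.1% fell.

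**Figure D3:**
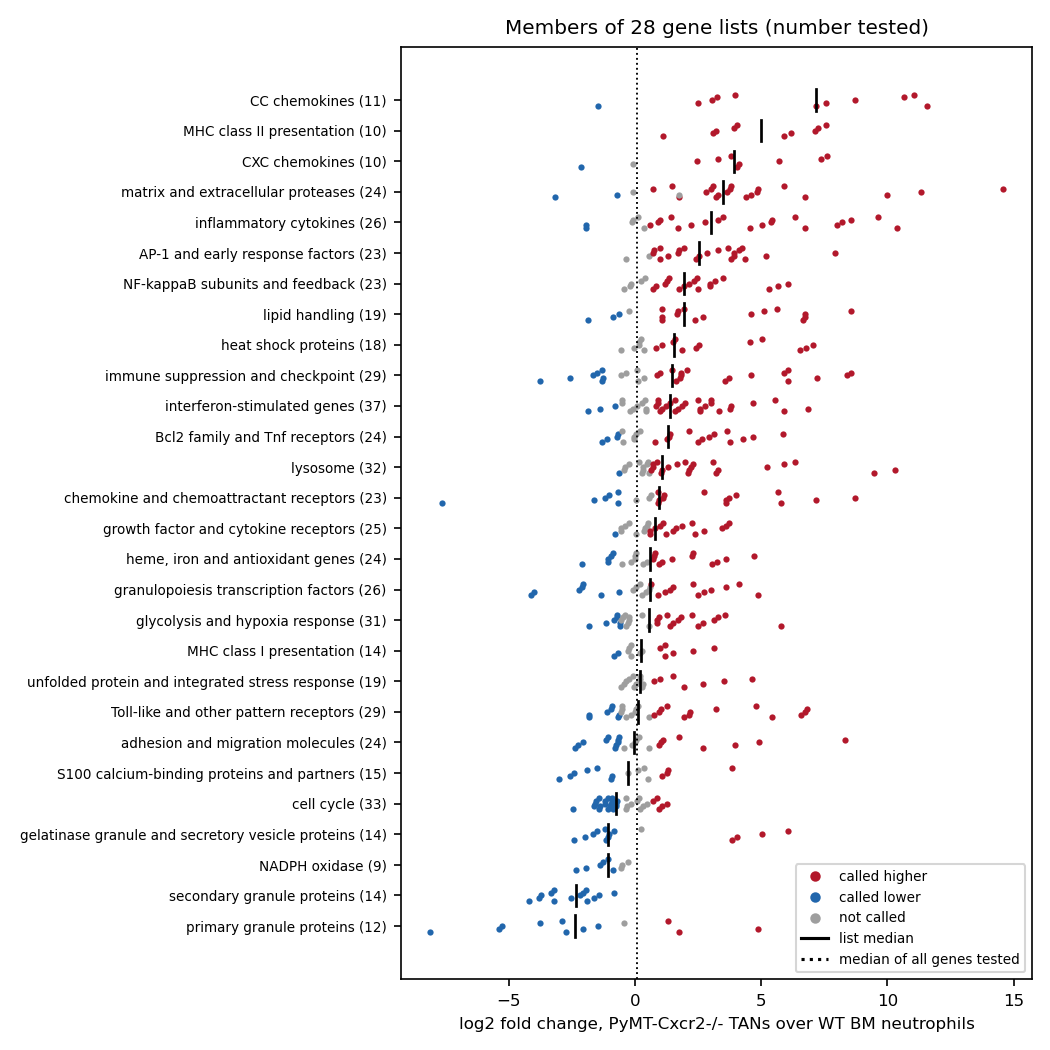
log2 fold change of each tested member of 28 gene lists between 4 PyMT-Cxcr2-/- TAN and 4 WT BM neutrophil samples (x axis), lists ordered by their median (y axis), with called members colored. Medians run from -2.39 for primary granule proteins to 7.16 for CC chemokines, around a median of 0.086 for all genes tested. Members with no marrow read were tested only because of their TAN reads, which favors higher medians.

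Genes tied to immune suppression were divided. In that list, 17 of 29 tested members rose, 7 fell and 5 passed in neither direction (median log2 fold change 1.49). Acod1, which makes the immunomodulatory metabolite itaconate, had 1878, 1089.5, 2827 and 1652 CPM against 9.99, 17.3, 12.6 and 14.97 CPM, at a log2 fold change of 7.22 ± 0.33 and with the 4 TAN samples spread over more than 1000 CPM. Ptgs2 rose, as above, while the prostaglandin E synthases Ptges and Ptges2 fell by 2.55 and 1.24 on the log2 scale. Entpd1, the ectonucleotidase CD39, had 373 ± 23.4 CPM against 115 ± 6.45 CPM and Arg2, an arginase, 178 ± 28.6 CPM against 97.7 ± 7.45 CPM. The checkpoint gene Vsir fell from 1770.0 ± 234 to 656 ± 98.9 CPM and the galectin gene Lgals3 from 819 ± 101 to 305 ± 38.5 CPM. Sirpa, the receptor of CD47, was at a retained level.

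Glucose handling was divided too. In the glycolysis and hypoxia list, 15 of 31 tested members rose, 7 fell and 9 passed in neither direction (median log2 fold change 0.56). Of all genes tested, 34.4% rose and 25.1% fell. Slc2a1, the glucose transporter GLUT1, had 578, 616, 689 and 579.6 CPM against 73.8, 77.2, 78.0 and 78.0 CPM (log2 fold change 3.14 ± 0.11). Slc16a3, the lactate exporter MCT4, had 1934, 2029, 2647 and 2162 CPM against 857, 966, 765 and 764 CPM (log2 fold change 1.52 ± 0.14). Hif1a and Pfkfb3 rose by 1.85 ± 0.15 and 1.39 ± 0.11. Slc2a3, the high-affinity transporter GLUT3, moved the other way, with 1053, 1154, 1379 and 1525 CPM against 2168, 2261, 2077 and 1932 CPM. Its log2 fold change of -0.59 ± 0.13 lay at the 1.5-fold limit, and the call held in 5 of 8 fits that left out 1 sample, failing without PyMT-Cxcr2-/- TAN sample 1 or 2 or WT BM sample 2. The hexokinase Hk3 fell to 26.1% of its marrow level. The glycolytic enzymes Gapdh, Eno1 and Ldha were at a retained level.

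The matrix list leaned to higher levels, with the macrophage markers moving alongside. In it, 20 of 24 tested members rose, 2 fell and 2 passed in neither direction (median log2 fold change 3.48). Fn1, fibronectin, had 702, 612, 445 and 235 CPM against 20.2, 28.9, 15.8 and 9.84 CPM (log2 fold change 4.88 ± 0.45). Spp1, osteopontin, had 423 ± 293 CPM against 7.85 ± 2.39 CPM. Mmp12, the macrophage elastase, had no read in any BM sample and was at least 4014-fold higher in the TANs against 3 reads over the 4 BM samples. Thbs1, thrombospondin-1, ran the other way with 238, 333, 211 and 311 CPM against 1863, 3347, 2665 and 2800.2 CPM (log2 fold change -3.15 ± 0.20), and Timp2 fell by 0.70 on the log2 scale. Plaur, the urokinase receptor, was at a retained level.

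Lysosomal, lipid and MHC class II genes followed. In the lysosome list, 21 of 32 tested members rose, 1 fell and 10 passed in neither direction (median log2 fold change 1.06). In the lipid handling list, 15 of 19 tested members rose, 3 fell and 1 passed in neither direction (median log2 fold change 1.94). All 10 MHC class II presentation genes rose (median log2 fold change 4.98), and 1 of them had a mean of 10 CPM or more in BM neutrophils. Cd74, the class II invariant chain, had 1652, 1594, 1086 and 914 CPM against 12.1, 11.5, 10.8 and 6.84 CPM (log2 fold change 7.14 ± 0.28). Apoe, a lipid carrier that was also among the 12 macrophage markers, had 2099.8, 2766, 1149 and 1065 CPM against 26.6, 19.6, 13.4 and 17.9 CPM (log2 fold change 6.66 ± 0.39). Abca1, a cholesterol exporter, had 660.1, 911, 636 and 444 CPM against 1.62, 2.48, 2.01 and 1.71 CPM (log2 fold change 8.55 ± 0.27).

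Among the 4 PyMT-Cxcr2-/- TAN samples, these genes were unevenly placed. The summed macrophage markers were 4537, 5233, 2976 and 2486 CPM in samples 1 to 4. Cd74, Apoe and Fn1 were likewise higher in samples 1 and 2 than in samples 3 and 4, as were Abca1 and Hspa1b. Apoe is part of the macrophage sum, so its order is not independent of that sum, and Fn1 is among the monocyte markers. Mammary epithelial markers summed to 261, 349, 90.2 and 130 CPM, again higher in the first pair. Il1b, Tnfaip3 and Cxcl2 did not share that order, since each was higher in sample 3 than in samples 1 and 2. The part of macrophage RNA in the lysosomal, lipid, matrix and MHC class II genes was not tested, nor was it for Il1b, Tnfaip3, Cxcl2 and Hspa1b.

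Interferon-stimulated genes rose in most members: 25 of 37 tested members rose, 3 fell and 9 passed in neither direction (median log2 fold change 1.38). Ifitm1, an antiviral membrane protein, had 1132 ± 95.7 CPM against 182 ± 31.6 CPM. Ifitm6 fell, with 313, 348, 309 and 605 CPM against 1264, 1048, 956 and 1234 CPM in the marrow (log2 fold change -1.38 ± 0.20). Against PyMT TANs, 6 of 37 members were lower in PyMT-Cxcr2-/- TANs and 1, Ifitm6, was higher. Over all 18463 genes tested between the TAN groups, 0.596% were lower and 1.38% higher. Class I presentation genes were divided, with 6 of 14 higher, 2 lower (1 without PyMT-Cxcr2-/- TAN sample 1 or 2 or WT BM sample 1) and 6 at a retained level. Of the genes that set survival, 14 of 24 tested members rose, 4 fell and 6 passed in neither direction (median log2 fold change 1.32). Mcl1, on which neutrophil survival depends, had 3262, 3058, 3714 and 4186 CPM against 1524, 1734, 1426 and 1359 CPM (log2 fold change 1.37 ± 0.14), and Bcl2l11, the pro-apoptotic BIM, had 331 ± 33.5 CPM against 63.9 ± 7.20 CPM. In the heme, iron and antioxidant list, 12 of 24 tested members rose, 5 fell and 7 passed in neither direction (median log2 fold change 0.61), with Txnrd1 at 3.06 and Prdx5 at -2.07 on the log2 scale.

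Of the 10 most abundant marrow genes that fell at least 4-fold, S100a9 was the first, followed by Ngp and Ltf. All 14 secondary granule genes fell (median log2 fold change -2.34). Ngp, neutrophilic granule protein, had 876, 1117, 1056 and 2924 CPM in PyMT-Cxcr2-/- TANs against 20448, 14258, 13159 and 17496 CPM in BM neutrophils (log2 fold change -3.32 ± 0.36, edgeR adjusted p = 5.68e-06). Ltf, the iron-binding lactoferrin, had 854, 1225, 1025 and 2816 CPM against 19003, 14378, 11659 and 14645 CPM (log2 fold change -3.20 ± 0.35). Camp, the cathelicidin antimicrobial peptide, had 143, 166, 158 and 508 CPM against 5903, 4349, 3707 and 5456 CPM (log2 fold change -4.19 ± 0.42). All TAN samples were below all marrow samples, and sample 4 was the highest TAN sample for each of the 3 genes. The siderophore-binding Lcn2 had 1118 ± 391 CPM against 6976 ± 1496 CPM.

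Primary granule genes changed in both directions: 3 of 12 tested members rose, 8 fell and 1 passed in neither direction (median log2 fold change -2.39). The serine protease Elane and the peroxidase Mpo, made in promyelocytes, were at 0.282 ± 0.281 and 0.763 ± 0.503 CPM in the TANs against 13.4 ± 4.38 and 31.4 ± 8.10 CPM. Lyz2, a lysozyme, had 2471, 3357, 3033 and 3209 CPM against 15123, 13702, 11551 and 13958 CPM (log2 fold change -2.03 ± 0.15). Srgn, the proteoglycan serglycin that packs granule contents, rose, with 1765, 1543, 1920.1 and 2018 CPM against 506, 612, 571 and 644 CPM (log2 fold change 1.77 ± 0.13). Ctsc, the protease that activates granule serine proteases, rose from 10.3 ± 1.16 to 272 ± 62.3 CPM, and Gusb rose by 1.33 on the log2 scale. In the gelatinase granule and secretory vesicle list, 4 of 14 tested members rose, 9 fell and 1 passed in neither direction (median log2 fold change -1.04). Mmp8, the neutrophil collagenase, had 648, 674, 833 and 1184 CPM against 5297, 4995, 4397 and 4947 CPM (log2 fold change -2.42 ± 0.18). Mmp9, gelatinase B, had 2127 ± 594 CPM against 6623 ± 1306 CPM and Retnlg, a resistin-like secreted protein, 1959 ± 445 CPM against 8410.1 ± 837 CPM.

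S100a9 and S100a8, whose products form calprotectin, were the most abundant marrow genes of their list. S100a9 had 4709, 4399.7, 4996 and 7722 CPM against 41401, 30791, 28476 and 40159 CPM (log2 fold change -2.56 ± 0.22). S100a8 had 6269.6, 5714, 6154 and 9806 CPM against 31169.9, 26898, 25248 and 29922 CPM (log2 fold change -1.89 ± 0.19). Both stayed among the abundant transcripts of the TANs despite the fall. In the whole list, 4 of 15 tested members rose, 7 fell and 4 passed in neither direction (median log2 fold change -0.28), and S100a10 rose by 3.86 ± 0.37. Counts of the near-identical stefin genes Stfa1, Stfa2 and Stfa3 are uncertain. Of the genes outside the lists, Syne1, a nuclear envelope protein, fell from 4325 ± 131 to 849 ± 387 CPM, and Adpgk, an ADP-dependent glucokinase, from 3709.7 ± 333 to 474 ± 195 CPM. Cd177, a surface protein of secondary granules, fell from 3293 ± 578 to 717 ± 327 CPM.

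No NADPH oxidase gene rose, and 6 of 9 fell (median log2 fold change -1.05). Cybb, the catalytic subunit gp91phox, had 470.4, 513, 417 and 769 CPM against 2825, 2312, 1927 and 2074 CPM (log2 fold change -1.94 ± 0.19). Rac2 and Ncf1 fell by 1.05 and 1.397 on the log2 scale, and Rac1 was at a retained level. In the cell cycle list, 5 of 33 tested members rose, 19 fell and 9 passed in neither direction (median log2 fold change -0.76). The 5 that rose were the replication genes Mcm2, Mcm3, Mcm4, Mcm6 and Rrm1, with Mcm4 at 31.4 ± 1.35 CPM against 21.2 ± 3.22 CPM. Mki67, a proliferation marker, had 98.9, 84.3, 85.6 and 131 CPM against 170.1, 204, 179.7 and 188 CPM (log2 fold change -0.76 ± 0.13), and E2f2, a cell cycle transcription factor, fell from 247 ± 36.0 to 76.0 ± 20.4 CPM.

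Transcription factors of granulopoiesis changed in both directions. In the list, 12 of 26 tested members rose, 7 fell and 7 passed in neither direction (median log2 fold change 0.59). Cebpb, the C/EBP factor of emergency granulopoiesis, had 1526, 1454, 1689 and 1489.7 CPM against 367, 307, 238 and 294 CPM (log2 fold change 2.49 ± 0.14). Stat3 and Per1 rose by 1.19 ± 0.12 and 1.398 ± 0.19. Spi1, the myeloid factor PU.1, and Cebpd fell by 0.64 and 1.36 on the log2 scale. Cebpe, the factor of secondary granule genes, was named after its values were seen: it had 4.05, 3.44, 4.83 and 18.7 CPM in PyMT-Cxcr2-/- TANs, with sample 4 apart from the others, against 192, 144, 109 and 135 CPM (log2 fold change -4.09 ± 0.60). Klf6, Foxo3, Klf2 and Klf7 were at a retained level.

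Receptors for chemoattractants changed in both directions. In that list, Cxcr2 included, 14 of 23 tested members rose, 6 fell and 3 passed in neither direction (median log2 fold change 0.94). Ccrl2, a decoy-like receptor that binds chemerin, had 2215, 1636, 2699 and 2720.1 CPM against 149.7, 226, 196 and 197 CPM (log2 fold change 3.73 ± 0.19). Ccr1, a receptor of Ccl3, had 1383, 1289.8, 1582 and 1597 CPM against 836, 910.0, 781 and 836 CPM (log2 fold change 0.93 ± 0.12). Cxcr4, the receptor that holds neutrophils in the marrow, had 417, 383, 518 and 494 CPM against 945, 772, 731 and 742 CPM (log2 fold change -0.68 ± 0.13), a call that was lost without PyMT-Cxcr2-/- TAN sample 2. The formyl peptide receptors Fpr1 and Fpr2 fell by 1.19 and 1.02 on the log2 scale, and C5ar1, the complement C5a receptor, was at a retained level.

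Adhesion genes were also mixed: 8 of 24 tested members rose, 10 fell and 6 passed in neither direction (median log2 fold change -0.04). Of all genes tested, 34.4% rose and 25.1% fell. The beta-2 integrin Itgb2 fell by 1.06 and its partner Itgam by 1.15 on the log2 scale, while Itgax and Itga4 rose by 1.11 ± 0.10 and 0.96 ± 0.13. Cd44, Itgal, Selplg and Cd9 were at a retained level. Of growth factor and cytokine receptor genes, 15 of 25 tested members rose, 1 fell and 9 passed in neither direction (median log2 fold change 0.80). Socs3, the feedback inhibitor of STAT3, had 1614, 1348, 1656 and 1733 CPM against 137, 178, 119.9 and 130.0 CPM (log2 fold change 3.63 ± 0.15), and Il1r2, the decoy interleukin-1 receptor, had 1777 ± 319 CPM against 407 ± 94.8 CPM. Ifngr2 was the single member that fell, but 2 fell without PyMT-Cxcr2-/- TAN sample 3 or WT BM sample 3 and 3 without PyMT-Cxcr2-/- TAN sample 4. Of pattern receptors, 13 of 29 tested members rose, 7 fell and 9 passed in neither direction (median log2 fold change 0.12). Tlr2 had 1002, 958, 1327 and 1306 CPM against 285, 434, 286 and 299 CPM (log2 fold change 1.95 ± 0.17), Nlrp3 rose by 2.17 ± 0.16, and the peptidoglycan-binding Pglyrp1 of secondary granules fell from 1654 ± 242 to 429 ± 117 CPM.

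Of the 10 most abundant protein-coding genes at a retained level, Sorl1 and Mxd1 came first. Sorl1, a sorting receptor, had 2871, 3004, 3931 and 4331 CPM in the PyMT-Cxcr2-/- TANs, against 4427, 3741, 3444 and 3181 CPM in BM neutrophils (log2 fold change 0.07, 95% interval -0.28 to 0.42). Mxd1, a MYC antagonist of maturing myeloid cells, had 3216, 3125, 3646 and 4359 CPM and 3715, 4043, 3485 and 3321 CPM (log2 fold change 0.11, 95% interval -0.19 to 0.41). The ranges of the 2 groups overlapped for both genes. H2-D1, an MHC class I heavy chain, Iqgap1, a scaffold of the cytoskeleton, Ptprc, the CD45 antigen, and Lyst, a regulator of lysosome size, had log2 fold changes of -0.15, -0.22, 0.04 and -0.19. Btg1, an antiproliferative gene, Adam8, a surface metalloprotease, Cd44, the hyaluronan receptor, and Ddx5, an RNA helicase, were at 0.26, 0.23, 0.01 and 0.12. Btg1 and Lyst were within the retained range in 5 of 8 fits that left out 1 sample, and the other 8 genes in 7 or 8. With offsets for gene length and GC content, Iqgap1 and Lyst were instead called lower, at log2 fold changes of -0.92 and -0.88. Of the 10 genes, 3 then stayed within the retained range.

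**Figure D4:**
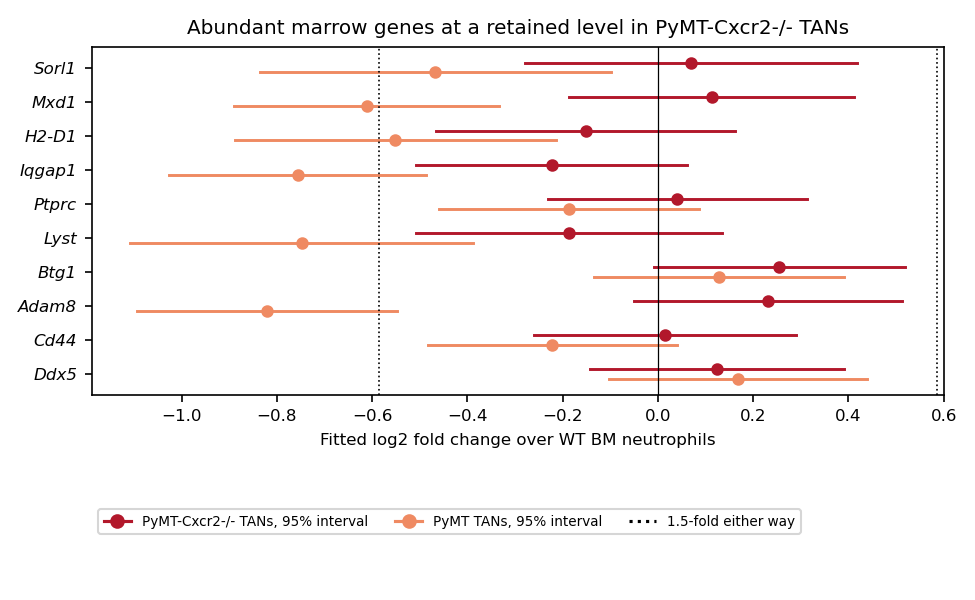
Fitted log2 fold change over 4 WT BM neutrophil samples (x axis), with 95% intervals, for the 10 most abundant retained marrow genes in PyMT-Cxcr2-/- TANs and in PyMT TANs (4 samples each, 2 separate fits that share the marrow samples). All 10 intervals of the PyMT-Cxcr2-/- TANs lie within 1.5-fold. In PyMT TANs, Adam8 (-0.82), Iqgap1 (-0.76), Lyst (-0.75) and Mxd1 (-0.61) were called lower than in the marrow.

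Adam8 was the one of these 10 for which the TAN groups differed by call. It had 1774, 2201, 2389 and 2401 CPM in the 4 PyMT-Cxcr2-/- TAN samples, 1856, 2207, 2096 and 2045 CPM in BM neutrophils and 1271, 1105, 958 and 1102 CPM in PyMT TANs. The first 2 ranges overlapped and the PyMT TANs lay below both (log2 fold change of PyMT-Cxcr2-/- over PyMT TANs 0.98 ± 0.15, edgeR adjusted p = 0.0117). An annotated gene lies on the opposite strand of Adam8, as it does for Sorl1 and Iqgap1.

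Other genes were not at a retained level: they fell from the marrow, but less than in TANs with Cxcr2. Whether each cell held more of these transcripts or more cells held them was not tested. Ngp was at 9.14% of its mean marrow level in PyMT-Cxcr2-/- TANs and at 1.504% in PyMT TANs, whose 4 samples had 269, 267, 283 and 163 CPM. The 2 TAN groups did not overlap, and their difference was called (log2 fold change 2.60 ± 0.38, edgeR adjusted p = 0.0113). Ltf was at 9.92% and 1.80% of its marrow level (log2 fold change between the TAN groups 2.46 ± 0.36), and Camp at 5.03% and 0.783% (log2 fold change 2.68 ± 0.50). In the secondary granule list, 7 of 14 members were called higher in PyMT-Cxcr2-/- than in PyMT TANs and none lower, with a median log2 fold change of 1.41. With replicate number as a block in the fit, 0 of the 14 were called higher. Of all 18463 genes tested between the TAN groups, 1.38% were called higher and 0.596% lower. Of gelatinase granule and secretory vesicle genes, 4 of 14 were higher, among them Mmp8 at 17.0% and 4.83% and Retnlg at 23.3% and 7.08% of the marrow level. Of the S100 list, 5 of 16 were higher, among them S100a8 at 24.7% and 12.5% and S100a9 at 15.5% and 7.51%. Serpinb1a, an inhibitor of neutrophil serine proteases, was at 12.5% and 3.76%.

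**Figure D5:**
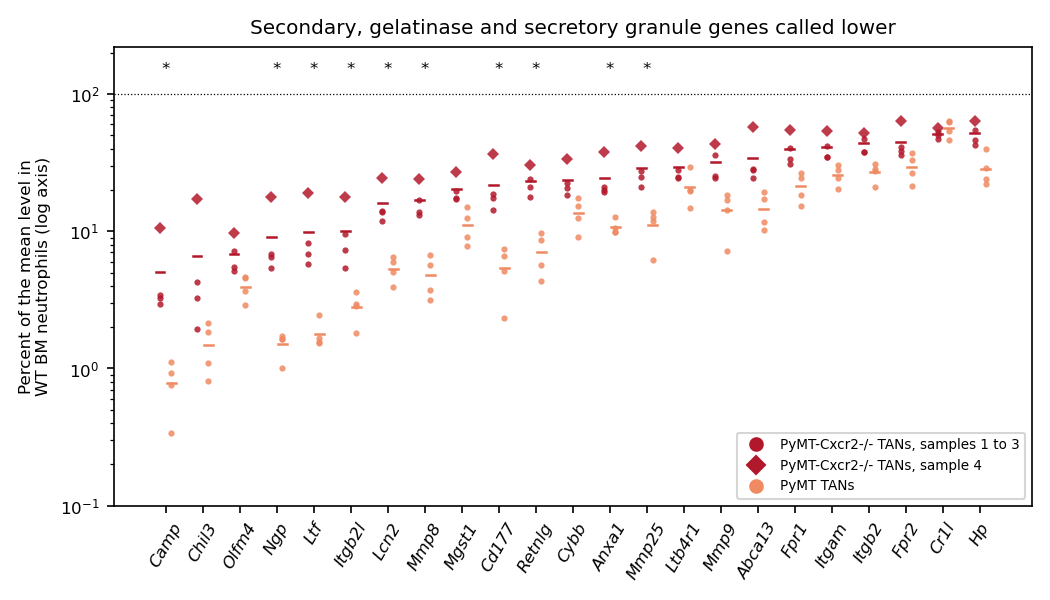
Level of each secondary granule, gelatinase granule or secretory vesicle gene called lower, as percent of its mean in 4 WT BM neutrophil samples (y axis, log). Values are given for each of 4 PyMT-Cxcr2-/- TAN and 4 PyMT TAN samples, with bars at the means and diamonds for PyMT-Cxcr2-/- TAN sample 4. Asterisks mark genes whose 2 TAN groups differed by call. Camp is at 5.03% and 0.783% of the marrow level, and sample 4 is the highest PyMT-Cxcr2-/- sample for most genes.

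Outside the granule lists, Slc2a3 was at 60.6% of its marrow level in PyMT-Cxcr2-/- TANs and 29.3% in PyMT TANs (log2 fold change between the TAN groups 1.04 ± 0.15, edgeR adjusted p = 0.0102). Ifitm6 was at 34.97% and 9.17%. The differences between the TAN groups rested on few samples: without PyMT TAN sample 2, 10 genes were called higher and 13 lower over all genes, in place of 255 and 110, and 1 secondary granule gene was higher in place of 7. Cxcr2, Ltf and Ifitm6 were called in all 8 fits that left out 1 TAN sample, and Ngp, Lcn2, Mmp8, Retnlg, Slc2a3 and Adam8 in 7. Ccl3, S100a8 and S100a9 were called in 2 of the 8 and Camp and Il1f9 in 3.

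PyMT-Cxcr2-/- TAN sample 4 was the highest of its group for all 14 secondary granule genes and for the 9 gelatinase granule and secretory vesicle genes that fell, but not for Lyz2, which was highest in sample 2. Its summed neutrophil markers, which share genes with these lists, were 31190 CPM, against 20217, 18879 and 22651 CPM in samples 1 to 3. Without that sample the log2 fold changes to the marrow were -3.87 for Ngp, -3.71 for Ltf, -4.82 for Camp and -4.997 for Cebpe, each further from 0 than with it. Over the comparison with the marrow, leaving out any 1 of the 8 samples gave 5982 to 6363 genes higher, 4230 to 4617 lower and 1556 to 1884 at a retained level.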

How the data were processed

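RNA-seq of sorted neutrophils was used from 3 groups of 4 samples. After removal of ribosomal RNA, stranded paired-end libraries were sequenced by the authors, who trimmed the reads, mapped them to mm10 with STAR and tallied them by gene in HTSeq. The authors deposited whole-number counts with no scaling applied. The annotation release and the strand setting of the counting are not given in the sources used here. The 55335 gene identifiers were matched without version to GENCODE M21 (55154 matched). Rows that name no gene were left out: reads with no feature were 45.6 to 48.7% of the total in PyMT-Cxcr2-/- TANs and 32.0 to 42.4% in BM neutrophils.

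The 2 groups of each comparison were fitted on the counts with edgeR 4.0.16 in R 4.3.3 (TMM, filterByExpr, robust quasi-likelihood test), after a check on simulated data. A gene was called at an adjusted p under 0.05 and a change of at least 1.5-fold, and was at a retained level where its 95% interval lay within 1.5-fold either way and its mean in BM neutrophils was at least 10 CPM. CPM levels were scaled over all 12 samples. The SE is the log2 fold change divided by the square root of F. Alternatives were DESeq2 1.42.0 and its size factors, upper quartile factors, library totals, other filters, no robust estimation, all 12 samples in 1 fit, a test against 1.5-fold itself, other limits and intervals, length and GC offsets, the replicate block and leaving out each sample. Members, gene lists and motifs were chosen with earlier results of these data known, so list counts stand beside the counts over all genes and were not tested as sets. Named were Cxcr2, the 10 most abundant protein-coding genes called at a log2 fold change of 2 or more, of -2 or less, or at a retained level, and in each list up to 4 of the most abundant called members a direction, with any member against the direction of most called ones. Which of these, and which other genes, were given with values in every sample (69 genes) was settled partly after their values were seen, and some genes were dropped after a first look at samples standing apart. A few named genes are not reported here. Promoters were shown because they hold the motif letters. No 2 samples of a group agreed within sampling noise. The sources number the samples but do not say that each came from 1 animal, so p-values measure the spread between samples. Promoter sequences are those of RefSeq on GRCm38.p6, 1 window a gene.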

Additional observations from a re-analysis of the deposited data

Results flagged for a closer look

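For 22 of the 69 genes given with values, the change from the marrow differed between the TAN groups in the test of PyMT-Cxcr2-/- against PyMT TANs. Over all 18463 genes tested between them, 1.38% were higher and 0.596% lower. The 69 genes were settled partly after their values were seen, so the 22 cannot be set against those shares. With replicate number as a block in the fit, 13 genes were called over all genes. Ccl3, S100a8 and S100a9 were called in 2 of 8 fits that left out 1 sample. The log2 fold change of PyMT-Cxcr2-/- over PyMT TANs was -7.00 for Cxcr2 and -0.97 for Ccl3. It was above 0 for the others, at 1.81 for Ly6g, 0.92 for Osm, 1.04 for Slc2a3, 0.85 for Slc16a3, 2.60 for Ngp, 2.46 for Ltf, 2.68 for Camp, 1.58 for Lcn2, 0.98 for S100a8, 1.04 for S100a9, 1.81 for Mmp8, 1.71 for Retnlg, 2.01 for Cd177, 1.56 for Syne1, 1.81 for Adpgk, 0.98 for Adam8, 1.93 for Ifitm6, 1.06 for Il1f9, 1.29 for Pglyrp1 and 1.73 for Serpinb1a. Of the genes above 0, Osm, Slc16a3, Adam8 and Il1f9 had not fallen from the marrow in PyMT-Cxcr2-/- TANs, and the rest had. Of those below 0, Cxcr2 had fallen from the marrow and Ccl3 had risen.

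In 13 of 138 groups of 4 values, 1 sample stood apart by Dixon's criterion. For genes chosen without their values, chance gives about 1 in 20 groups. Some genes were dropped here after a look at samples standing apart, so the count cannot be set against that rate. PyMT-Cxcr2-/- TAN sample 4 was above its group with 180.3 CPM for Ly6g (others 106 to 109), 2924 CPM for Ngp (others 876 to 1117), 508 CPM for Camp (others 143 to 166), 1697 CPM for Lcn2 (others 832 to 975), 9806 CPM for S100a8 (others 5714 to 6269.6), 18.7 CPM for Cebpe (others 3.44 to 4.83), 605 CPM for Ifitm6 (others 309 to 348) and 95.3 CPM for Serpinb1a (others 35.5 to 39.2). These 8 genes share that sample and are not independent of each other. In BM neutrophils, sample 1 had 4324 CPM for Csf3r (others 3801 to 3873), 108 CPM for Cxcl2 (others 207 to 222) and 8568 CPM for Mmp9 (others 5766 to 6122), and sample 2 had 915 CPM for Hdc (others 689 to 713) and 434 CPM for Tlr2 (others 285 to 299).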

How the results depend on the processing

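In the comparison with the marrow, the counts of genes higher, lower and at a retained level stayed within 1.5 times their value under every alternative tried but 1, and no called gene that is printed changed direction. Values that were not called, near 0, did change sign: without 1 sample, Sorl1 ran from -0.04 to 0.19, Ptprc from -0.02 to 0.13, Cd44 from -0.07 to 0.10 and Il1f9 from -0.06 to 0.27. A limit of 1.5 on the log2 scale left 1657 genes lower in place of 4444. Scaling moved the median log2 fold change of all genes by 0.180 with library totals alone, by -0.178 with length and GC offsets and by -0.134 with all 12 samples in 1 fit. Of the 10 leading retained genes, 8 were still retained with library totals, 3 with length and GC offsets, 8 with the replicate block (not Iqgap1 and Btg1) and 7 in the fit of 12 samples.

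The comparison of the 2 TAN groups depended on the fit, with 255 genes higher and 110 lower in PyMT-Cxcr2-/- TANs. DESeq2 called 693 higher and 294 lower, and length and GC offsets left 107 higher. Leaving out 1 sample gave 10 to 427 genes higher and 13 to 100 lower. The higher count fell by over 1.5 times in the fits without PyMT TAN sample 2 (10), 3 (148) or 4 (123) and without PyMT-Cxcr2-/- TAN sample 1 (166), 3 (58) or 4 (68), and without PyMT TAN sample 1 it rose to 427. Secondary granule genes higher, 7 of 14, were 13 with DESeq2 and 1 to 8 without 1 sample. The cause was not tested.

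Samples share replicate numbers across groups, but the numbers did not pair them: deviations of same-numbered samples correlated at 0.000707 to 0.0938 between PyMT-Cxcr2-/- TANs and BM neutrophils and at -0.206 to -0.0819 between the TAN groups. With the replicate block, 6025 genes were higher and 4447 lower against the marrow, while 4 were higher and 9 lower between the TAN groups, and 5 and 9 with the block and the offsets. No secondary granule gene was among them (0 of 14). Small list counts also moved without PyMT-Cxcr2-/- TAN sample 4, where 5 interferon-stimulated genes fell in place of 3, and without its sample 1 or 2 or WT BM sample 1, where the 1 lysosomal gene that fell was not called. For genes too low to pass the filter, a difference was not detectable at this depth.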

Other observations

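Of 4 T and NK cell markers tested, Cd3d and Cd3g fell and Cd4 rose. Cd3d, a subunit of the T cell receptor complex, had 21.95, 22.5, 27.4 and 39.6 CPM in the 4 PyMT-Cxcr2-/- TAN samples and 240.1, 211, 207 and 228 CPM in the 4 BM samples (log2 fold change -2.86 ± 0.17), so the groups did not overlap. Cd3g fell with it, at a log2 fold change of -3.97 ± 0.30 from a far lower level, while Cd3e was not called and Cd8a, Ncr1, Klrb1c and Trac were too low to test. Siglecf, an eosinophil lectin also known from subsets of tumor neutrophils, had 58.3, 46.1, 63.9 and 49.6 CPM in PyMT-Cxcr2-/- TANs against 18.7, 14.7, 16.4 and 17.9 CPM in BM neutrophils (log2 fold change 1.82 ± 0.13). PyMT TANs had 173, 128, 142 and 98.4 CPM of Siglecf, above every PyMT-Cxcr2-/- sample (log2 fold change of PyMT-Cxcr2-/- over PyMT TANs -1.32 ± 0.18, edgeR adjusted p = 0.0102). Of the 4 eosinophil and mast cell markers tested, Ccr3 and Kit also rose and Cpa3 was not called. Prg2, Epx and Il5ra, which eosinophils are known for, were too low to test.

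Of 7 monocyte markers, 6 rose and Ly6c2 fell. Ly6c2 had 74.8, 73.1, 82.2 and 146 CPM in PyMT-Cxcr2-/- TANs and 851, 678, 643 and 797 CPM in BM neutrophils (log2 fold change -2.85 ± 0.21), and PyMT TANs had a mean of 26.1 ± 7.402 CPM (SD, n = 4). Ccr2, the chemokine receptor of inflammatory monocytes, had 80.3, 64.0, 72.0 and 42.5 CPM in PyMT-Cxcr2-/- TANs and 4.86, 6.90, 3.64 and 2.49 CPM in BM neutrophils (log2 fold change 3.996 ± 0.30). Of the platelet and megakaryocyte markers, the integrin Itgb3 fell from 113 ± 25.3 to 21.4 ± 3.91 CPM, and Pf4 rose from 1.0 ± 0.480 to 5.04 ± 1.52 CPM. The genes of these 2 paragraphs were picked after their values were seen.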
